A study of Rattus norvegicus with 2 samples.

Results

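The complement and coagulation genes were followed through a table of FPKM (fragments per kilobase of gene, scaled to the size of the library) for rat retina after ischemia-reperfusion. They were 39 genes of the 32662 rows of the table, chosen by name as members of the complement cascade, the clotting cascade, their receptors and their inhibitors. Of these, 38 were matched by the exact gene symbol, and *C5* was matched through its synonym *Hc* in the RefSeq gene table. For *C2* and *C4a*, which have 2 rows each, the row with the higher mean FPKM was used.

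The study sequenced RNA from retinas of female Long-Evans rats, a pigmented outbred strain, to find circular RNAs whose use differs after ischemic injury. CTRL is the retina of a rat of 2 months after a sham procedure, and IR12 is the retina of a rat of the same strain and age, taken 12 h after ischemia-reperfusion, in which blood flow to the eye is stopped and then restored. Both libraries were made from 350 ng of total RNA with a stranded kit that removes ribosomal RNA. Each condition has 1 library, so no difference below has a replicate error or a p-value, and the effect of the injury and the difference between animals cannot be told apart.

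Complement is a set of plasma and cell surface proteins in which proteases cut one another in sequence, label surfaces for phagocytes and can end in a pore in the target membrane. Coagulation is a second protease cascade, started by tissue factor and brought to a stop by surface-bound anticoagulants, and its proteases also act on cells through protease-activated receptors. Most circulating components of both are made by the liver, while the retina makes some of them locally in glia, microglia, vessels and pigment epithelium.

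Of the 39 genes, 5 rose and 1 fell at least 2-fold from CTRL to IR12 on the log2(FPKM + 1) scale, the scale of all log2 ratios below. *C1r*, *C1s*, *Clu*, *F2rl1* and *Pros1* were higher, and *F5* was lower. These are 12.8% and 2.56% of the 39 members. Over all 32662 rows the shares past 2-fold were 2.73% higher and 2.55% lower, and over the 13599 genes that reach 1 FPKM in either library they were 6.56% and 6.12%. The calls lie among the 23 members that reach 1 FPKM, so 5 and 1 of these 23 stand beside the shares of the 13599 genes. Of all rows, 13562 were listed at 0 in both libraries and could not be called. The share of members that fell is near that of all rows but rests on 1 gene.

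FPKM of at least 1 in at least 1 library was reached by 23 of the 39 members, of which *F2rl1* and *Procr* reached it through IR12 alone. The other 16 were under 1 FPKM in both libraries, and *Cfd* and *C9* were listed at 0 in both. A value of 0 in this table says little by itself, because all 37 mitochondrial genes are listed at 0 too. The median log2 ratio was 0.16 over all 39 members and 0.42 over the 23, against 0.02 over the 13599 genes.

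The scale bears on every direction given here. FPKM added up over all rows came to 1402321 for CTRL but to 895199.9 for IR12. Bringing both libraries to the same sum (TPM scale) moved the median log2 ratio of all genes from 0.02 to 0.59. On the deposited scale 892 genes were at least 2-fold higher and 832 lower, so that 51.7% of the called genes were higher. After rescaling the numbers were 2817 and 436, or 86.6% higher, and 8 members were past 2-fold upward and 1 downward. Relative to the shifted median of all genes, 4 members were past 2-fold upward on that scale (*C1r*, *C1s*, *Clu* and *Pros1*) and 1 downward (*F5*).

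**Figure D1:**
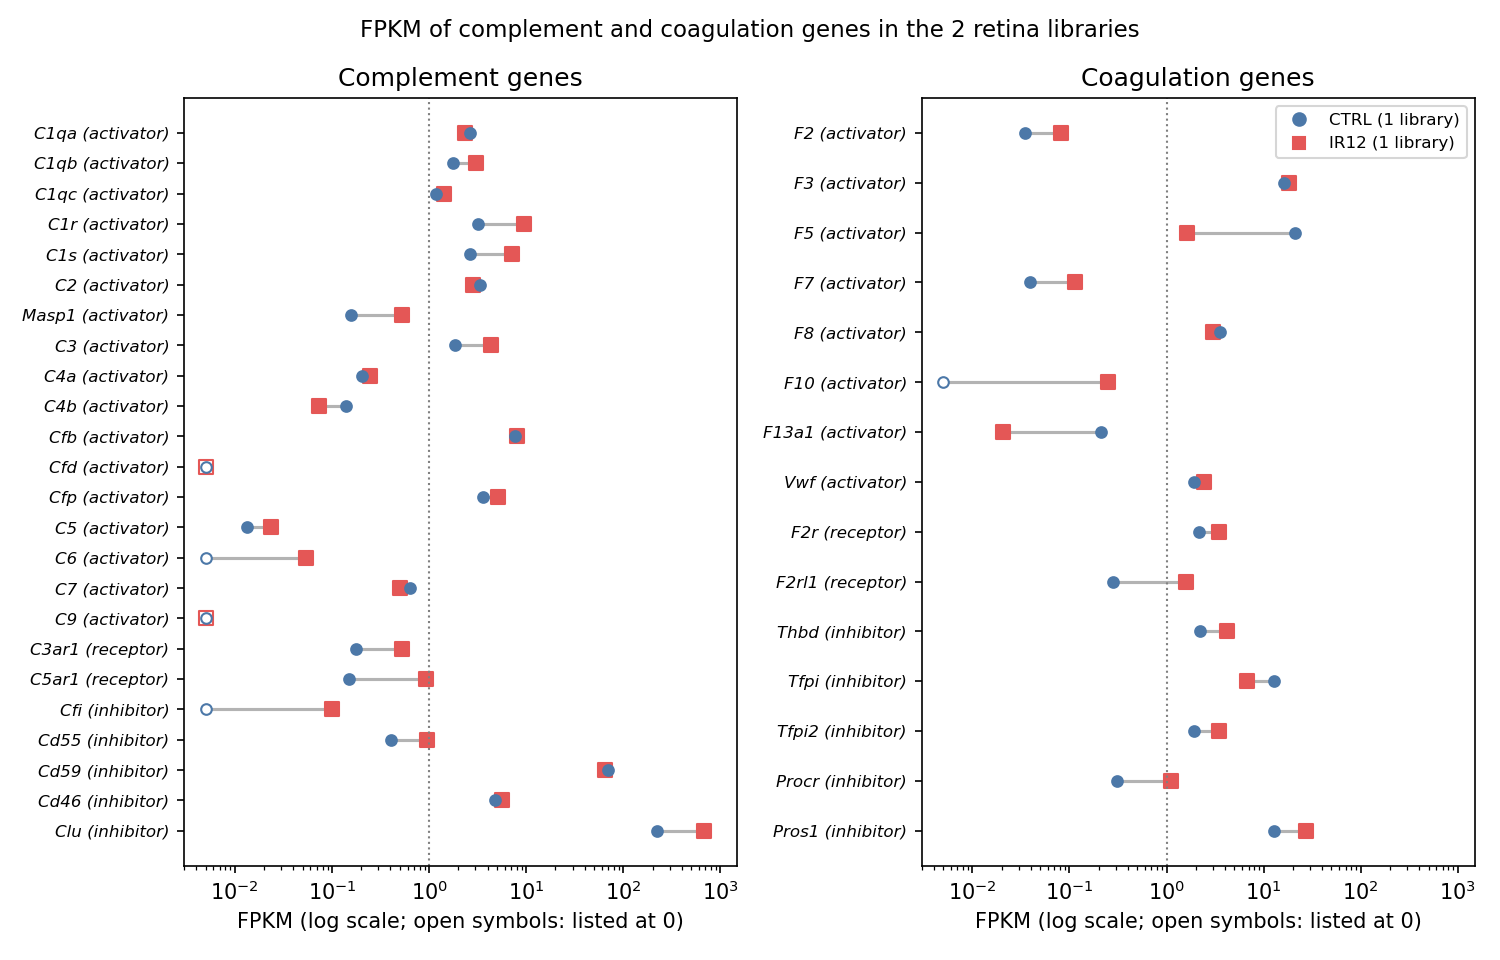
FPKM of each complement gene (left) and coagulation gene (right) on a log axis, with a circle for the CTRL library, a square for the IR12 library and open symbols at the left edge for values listed at 0. The dotted line marks 1 FPKM, *Clu* is the rightmost gene in both libraries, and *F5* has the longest line among genes above 0 in both.

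The classical pathway starts with C1, in which the recognition molecule C1q carries the proteases C1r and C1s. The genes of these C1 proteases rose, and none of those of the C1q chains passed 2-fold. *C1r*, whose product cuts and activates C1s, had 3.21 FPKM in CTRL and 9.52 FPKM in IR12, a ratio of 2.96 and a log2 ratio of 1.32. *C1s*, whose product cuts C4 and C2, had 2.63 FPKM in CTRL and 7.17 FPKM in IR12, a ratio of 2.72 and a log2 ratio of 1.17. Of the 13599 genes, 555 had a higher log2 ratio than *C1r* and 690 a higher one than *C1s*.

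The 3 chains of C1q are encoded side by side. *C1qa* had 2.61 FPKM in CTRL and 2.34 FPKM in IR12, *C1qb* 1.77 and 3.06 FPKM, and *C1qc* 1.17 and 1.41 FPKM. Their log2 ratios were -0.11, 0.55 and 0.15, and none reached 2-fold. *C2*, the protease that C1s cuts together with C4, had 3.31 FPKM in CTRL and 2.80 FPKM in IR12. Its log2 ratio of -0.18 and that of *C1qa* turn positive on the TPM scale, to 0.30 and 0.34.

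*C1r* and *C1s* are neighbours on chromosome 4 in the rn6 build of the table, at chr4:157125998-157136829 and chr4:157143592-157155609, 6.76 kb apart. *C1rl*, a C1r-like protease gene 2.55 kb on the other side of *C1r*, had 0.0916 FPKM in CTRL and 0.501 FPKM in IR12. The 3 C1q genes lie within a stretch of chromosome 5 with gaps of 3001 bases between *C1qb* and *C1qc* and 2857 bases between *C1qc* and *C1qa*. The neighbouring protease genes thus both passed 2-fold, and none of the neighbouring C1q genes did.

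The promoter of *C1r* is shown because the gene was called, and it holds matches to motifs of factors known from acute-phase genes. Promoters are RefSeq sequences on the GRCr8 build, 250 bases before to 50 after the start. 4 motifs were searched on both strands with overlaps allowed, namely NF-kB (GGG and CC with any 5 bases between them), C/EBP (TTGCNNAA), STAT (TTCNNNGAA) and AP-1 (TGANTCA). The *C1r* promoter, chr4:159098763-159099062 on the plus strand, has a C/EBP match that begins 83 bases before the start and an NF-kB match that begins 42 bases before it, both in capitals.
C1r: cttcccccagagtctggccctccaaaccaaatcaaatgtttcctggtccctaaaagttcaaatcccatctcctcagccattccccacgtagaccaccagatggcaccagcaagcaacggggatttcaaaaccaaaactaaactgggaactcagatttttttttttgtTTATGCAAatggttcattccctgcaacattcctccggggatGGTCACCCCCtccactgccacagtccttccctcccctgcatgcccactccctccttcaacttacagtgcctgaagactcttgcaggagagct

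The table of promoters held 25 of the 39 members, among them 3 of the 6 called members (*C1r*, *Pros1* and *F5*). *Tfpi* has 2 promoters in it, which makes 26 promoters. An NF-kB match was found in 21 of these 26, a C/EBP match in 4, a STAT match in 2 and an AP-1 match in 7. Over all 33469 promoters of the table the shares with a match were 47.3%, 10.6%, 8.87% and 7.33%. A C/EBP match was present for *C1r*, *C3*, *C6* and *F13a1*, and a STAT match for *C1qa* and *Pros1*. A match is a run of letters and not a measured binding site.

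The lectin pathway enters the cascade through proteases related to C1r and C1s. *Masp1*, which encodes such a protease, had 0.157 FPKM in CTRL and 0.521 FPKM in IR12. The lectin pathway's circulating recognition genes *Mbl1* and *Mbl2* were listed at 0 in both libraries. Both values of *Masp1* are under 1 FPKM, so it was not counted.

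C3 is the component on which all pathways converge, and C4 is its counterpart in the classical and lectin pathways. *C3* had 1.85 FPKM in CTRL and 4.31 FPKM in IR12, a ratio of 2.33. With the pseudocount of 1 its log2 ratio was 0.90, under 2-fold, and with a pseudocount of 0.1 it was past 2-fold at 1.18. *C4a* had 0.202 FPKM in CTRL and 0.245 FPKM in IR12, and *C4b* had 0.140 and 0.0743 FPKM. These paralogs are given the same locus on chromosome 20, so the split of reads between them is uncertain.

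The alternative pathway amplifies C3 cleavage on surfaces. *Cfb*, which encodes factor B, the protease of the alternative C3 convertase, was the most abundant of the complement activators in CTRL on the FPKM scale, which is per length, and came after *C1r* in IR12. It had 7.58 FPKM in CTRL and 8.10 FPKM in IR12, a log2 ratio of 0.08. *Cfp*, which encodes properdin, the protein that stabilises this convertase, had 3.61 FPKM in CTRL and 5.15 FPKM in IR12, a log2 ratio of 0.42. *Cfd*, which encodes factor D, the protease that cuts factor B, was listed at 0 in both. *Cfb* and both rows of *C2* share a locus on chromosome 20, so reads of these related genes could be divided between them, and the second row of *C2* had 0.144 FPKM in CTRL and was listed at 0 in IR12.

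The terminal components C5 to C9 build the membrane attack complex, and none of the 4 members among them reached 1 FPKM. *C7* had 0.639 FPKM in CTRL and 0.504 FPKM in IR12, *C5* had 0.0134 and 0.0236 FPKM, and *C6* was listed at 0 in CTRL and at 0.0543 FPKM in IR12. *C9* was listed at 0 in both. Of the C8 chains, which are outside the 39 members, *C8a* was listed at 0 in both, *C8b* had 0.0286 and 0.0502 FPKM, and *C8g* had 1.05 FPKM in CTRL and 0.612 FPKM in IR12. Apart from *C8g* in CTRL, the terminal genes were thus under 1 FPKM in both libraries.

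The anaphylatoxin receptors sense the small fragments released from C3 and C5, mostly on myeloid cells. *C5ar1* had 0.149 FPKM in CTRL and 0.935 FPKM in IR12, and *C3ar1* had 0.178 and 0.522 FPKM. Both were under 1 FPKM in both libraries and were not counted. Low values can be read back to few reads, because the smallest FPKM steps show what a single read was worth. At 17 of 25 locus lengths under 1500 bases a read was worth 1.71 times as much FPKM in CTRL as in IR12, so equal FPKM rests on more reads in IR12.

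With that ratio, the fewest whole reads that give the values of *C5ar1* within 0.005% are 4 in CTRL and 43 in IR12. For *C3ar1*, they are 1 and 5. Whole multiples of these fit as well, so they are lower bounds. The same reading gives at least 1 and 4 reads for *F2* and for *Cd55*, 1 and 5 for *F7*, 1 and 3 for *C5*, and 6 and 1 for *F13a1*. *Cd55* at 0.404 FPKM and *F2* at 0.0349 FPKM in CTRL share the same bound, so the bounds do not rank genes by reads. Which multiple applies was not determined.

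Among the complement receptors outside the 39 members, 4 of 8 rose and none fell. Past 2-fold higher were 2.73% of all rows and 6.56% of the 13599 genes that reach 1 FPKM. All but *Cd93* of the 4 receptors reached 1 FPKM through IR12 alone. *Cd93*, a membrane receptor once described as a C1q receptor, had 1.23 FPKM in CTRL and 23.7 FPKM in IR12. The chains of complement receptors 3 and 4, which bind fragments of C3, were higher too. *Itgam* had 0.693 FPKM in CTRL and 5.71 FPKM in IR12, *Itgax* 0.174 and 1.62 FPKM, and their common partner *Itgb2* 0.198 and 2.16 FPKM. *Itgam* and *Itgax* are given the same locus on chromosome 1, so the split of reads between them is uncertain. *Vsig4*, a C3 fragment receptor of resident macrophages, was listed at 0 in both. *C1qbp*, a mostly mitochondrial protein that can bind C1q, had 39.2 FPKM in CTRL and 75.9 FPKM in IR12, a log2 ratio of 0.94.

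Some markers of blood leukocytes were higher in the same library as these receptors. Over all rows, 2.73% were past 2-fold higher and 2.55% lower. In the list of neutrophil markers 4 of 10 rose, all of which reached 1 FPKM through IR12 alone, and its summed FPKM was 0.981 in CTRL and 41.6 in IR12. Its most abundant gene in IR12 was *S100a9*, and the granule genes *Mpo* and *Elane* were listed at 0 in both libraries. *Elane* is given the same locus on chromosome 7 as *Cfd*, which was listed at 0 too. In the list of monocyte and macrophage markers 4 of the 9 listed rose, 3 of them reaching 1 FPKM through IR12 alone, with a sum of 11.4 FPKM in CTRL and 87.5 FPKM in IR12, most of it from *Lyz2*, which microglia can also express. *Ngp* of the first list and *Mrc1* and *Cd163* of the other were lower in IR12, all under 1 FPKM. Relative to the shifted median on the TPM scale, 2 neutrophil and 3 monocyte and macrophage markers were past 2-fold upward. Of 9 microglia markers none rose and *Gpr34* fell, with a sum of 17.6 FPKM in CTRL and 13.8 FPKM in IR12 led by *Aif1*, and *Siglech* was listed at 0 in CTRL. More cells of a type and more RNA per cell cannot be told apart in whole tissue, and the part of these cells in the result was not tested.

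Complement inhibitors protect host cells, and among the 5 members of this class 1 rose. Of the 5, 3 reached 1 FPKM and could be called, and 6.56% of the 13599 such genes rose. *Clu* encodes clusterin, a secreted chaperone that also binds the terminal complex and keeps it out of membranes. It had 223 FPKM in CTRL and 673 FPKM in IR12, a ratio of 3.02 and a log2 ratio of 1.59, with 397 of the 13599 genes above it. *Clu* stood at percentile 97.3 of these genes in CTRL and 99.2 in IR12. It made up 55.3% of the summed FPKM of the 39 members in CTRL and 77.8% in IR12. The row lies at chr15:42640146-42665857 in rn6.

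None of the membrane-bound inhibitors was called. *Cd59*, which encodes the surface protein that blocks assembly of the pore, had 70.2 FPKM in CTRL and 65.3 FPKM in IR12, and its log2 ratio of -0.10 becomes 0.53 on the TPM scale. *Cd46*, which encodes a cofactor for cleavage of C3 and C4 fragments, had 4.79 FPKM in CTRL and 5.68 FPKM in IR12. *Cd55*, whose product speeds the decay of convertases, had 0.404 and 0.946 FPKM, a plain ratio of 2.34. Its log2 ratio was 0.47 with the pseudocount of 1 and 1.05 with a pseudocount of 0.1, but it was under 1 FPKM in both libraries. *Cfi*, the gene of the soluble protease factor I, was listed at 0 in CTRL and at 0.101 FPKM in IR12.

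Among the complement inhibitors outside the 39 members, none of the 9 analysed passed 2-fold with the pseudocount of 1. *Serping1* encodes C1 inhibitor, the serpin that traps C1r and C1s. It had 4.39 FPKM in CTRL and 9.03 FPKM in IR12, a plain ratio of 2.06 and a log2 ratio of 0.90. *Cr1l*, a rodent regulator of C3 and C4 deposition, had a log2 ratio of 0.40, and *C4bpb* had 11.8 and 12.2 FPKM. Of the 9, 4 were higher and 4 lower in IR12. Vitronectin, which keeps the terminal complex out of membranes, is encoded by *Vtn*. *Vtn* had 3.56 FPKM in CTRL and 1.76 FPKM in IR12, which is 2.02-fold lower as a plain ratio, with a log2 ratio of -0.72. *Susd4*, a membrane regulator gene, had 16.2 and 10.5 FPKM, a log2 ratio of -0.59. On the TPM scale the log2 ratio of *Vtn* becomes -0.25 and that of *Susd4* 0.02, and 2 of the 9 genes passed 2-fold upward. Relative to the shifted median of all genes on that scale, none of the 9 was past 2-fold.

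Müller glia, the radial glia of the retina, are a known source of several of these genes. Of 8 Müller glia markers, 6 fell and *Gfap* rose, against 6.12% lower and 6.56% higher of the 13599 genes that reach 1 FPKM. The summed FPKM of the list was 1171 in CTRL and 446 in IR12. Its most abundant gene in CTRL, *Glul* (glutamine synthetase), had 754 FPKM in CTRL and 126 FPKM in IR12, and *Aqp4*, the water channel, had 48.0 and 4.16 FPKM. The most abundant marker in IR12 was the filament gene *Vim*, with a log2 ratio of 0.86. *Gfap*, the filament gene of reactive glia, had 2.95 FPKM in CTRL and 21.9 FPKM in IR12. Of the 8, 4 were past 2-fold downward and 2 upward (*Gfap* and *Vim*) on the TPM scale, and 6 and 1 relative to its shifted median. *Clu*, *C1r* and *C1s* were thus higher in the library in which most Müller glia markers were lower, and the part of these cells in the result was not tested.

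Complement activators and inhibitors were set against each other by their medians. The 17 activators had a median log2 ratio of 0.08, and the 9 of them with FPKM of at least 1 had 0.42. The 5 inhibitors had 0.21 both over all and over the 3 with FPKM of at least 1. The difference between activators and inhibitors was 0.21 over genes with FPKM of at least 1 and turned to -0.12 when all genes above 0 were taken, so its sign depends on the low genes. With a minimum of 5 FPKM it was 0.58. Summed FPKM of the activators was 28.9 in CTRL and 45.3 in IR12, and that of the inhibitors 298 and 745. Without *Clu* the inhibitors summed to 75.4 in CTRL and 72.02 in IR12.

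**Figure D2:**
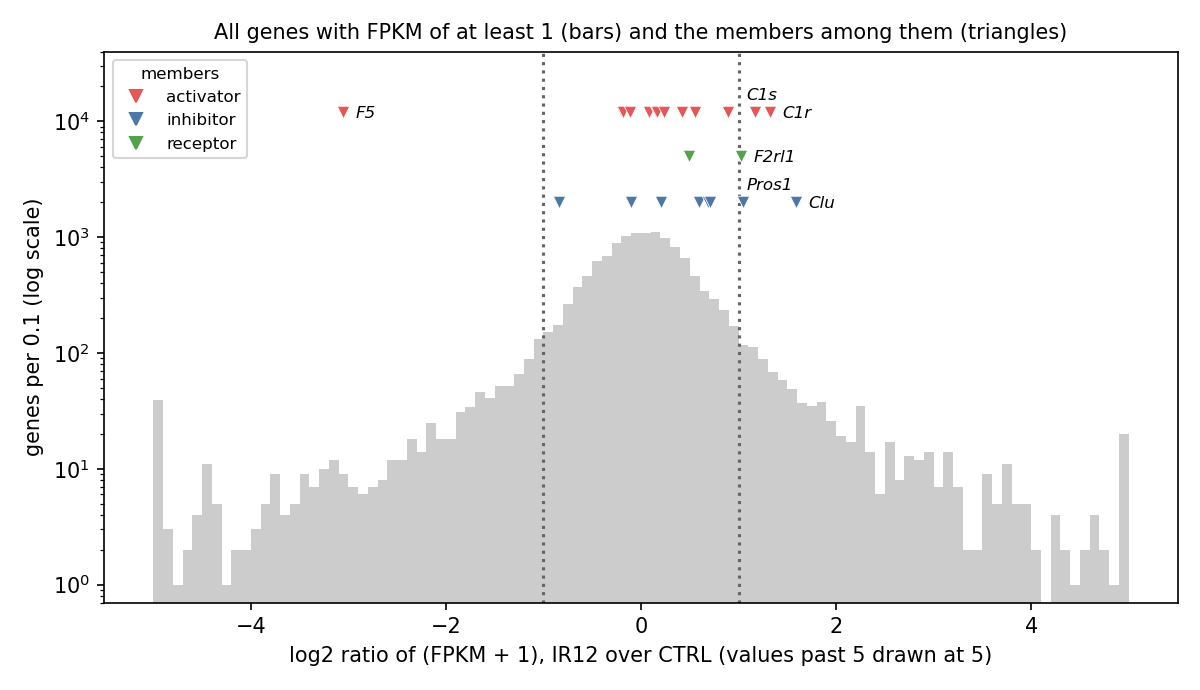
Number of genes by log2 ratio of (FPKM + 1), IR12 over CTRL, for the 13599 genes that reach 1 FPKM in either library (bars, log axis), with the 23 members among them as triangles in a row for each side. Dotted lines mark 2-fold, past which lie *C1s*, *C1r*, *F2rl1*, *Pros1* and *Clu* on the right and *F5* on the left.

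In the clotting cascade, 1 of the 8 procoagulant genes fell and none rose, against 2.55% of all rows lower and 2.73% higher. Only 4 of the 8 reached 1 FPKM and could be called. *F5* encodes factor V, which becomes the cofactor that lets factor X turn prothrombin into thrombin. It had 20.9 FPKM in CTRL and 1.62 FPKM in IR12, which is 12.8-fold lower in IR12, with a log2 ratio of -3.06. It stood at percentile 63.2 of the 13599 genes in CTRL and at 11.7 in IR12, and 137 of them had a lower log2 ratio. Its log2 ratio on the TPM scale was -2.50. No other member of the 39 passed 2-fold downward.

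*F5* lies at chr13:82479998-82535534 in rn6, beside the selectin genes, which encode adhesion molecules of vessels and leukocytes. These neighbours were picked after their values were seen. *Selp*, 15.4 kb away, had 0.0656 FPKM in CTRL and 2.12 FPKM in IR12, and *Sele* had 0.142 and 3.54 FPKM. *Slc19a2*, a thiamine transporter gene 17.0 kb on the other side, had 18.4 FPKM in CTRL and 20.8 FPKM in IR12. *Selp* and *Sele* were near 0 in CTRL and could not have shown a fall.

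The *F5* promoter is shown as that of the called gene that was lower. It spans chr13:79046407-79046706 on the plus strand in GRCr8, with an AP-1 match that begins 143 bases before the start and an NF-kB match that begins 54 bases before it.
F5: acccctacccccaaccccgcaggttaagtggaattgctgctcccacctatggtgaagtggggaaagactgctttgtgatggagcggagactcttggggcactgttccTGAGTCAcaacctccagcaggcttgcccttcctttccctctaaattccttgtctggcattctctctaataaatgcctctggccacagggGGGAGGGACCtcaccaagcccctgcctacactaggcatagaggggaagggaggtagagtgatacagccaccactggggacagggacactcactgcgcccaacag

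Tissue factor, encoded by *F3*, is the membrane protein that starts clotting where blood meets tissue. *F3* had 16.2 FPKM in CTRL and 18.2 FPKM in IR12, a log2 ratio of 0.16. *F8*, which encodes the cofactor factor VIII, had 3.56 FPKM in CTRL and 2.996 FPKM in IR12, and its log2 ratio of -0.19 becomes 0.30 on the TPM scale. *Vwf*, the endothelial gene of the factor VIII carrier and platelet tether, had 1.91 FPKM in CTRL and 2.44 FPKM in IR12. None of these passed 2-fold, and without *F5* the procoagulants summed to 21.9 FPKM in CTRL and 24.1 FPKM in IR12.

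The liver-type clotting proteases were under 1 FPKM in both libraries. *F2*, the prothrombin gene, had 0.0349 FPKM in CTRL and 0.0818 FPKM in IR12, and *F7*, whose product pairs with tissue factor, had 0.0391 and 0.114 FPKM. *F10*, 1.39 kb from *F7* on chromosome 16, was listed at 0 in CTRL and at 0.251 FPKM in IR12. *F13a1*, which encodes the fibrin-crosslinking enzyme and is expressed by some macrophages, had 0.214 FPKM in CTRL and 0.0209 FPKM in IR12. Of the procoagulant genes outside the 39 members, 4 of the 12 listed reached 1 FPKM and none passed 2-fold. *Lman1* passed it on the TPM scale at 1.13, but none did relative to the shifted median of all genes. Among these 12 the secretory receptor pair for factors V and VIII was abundant. *Lman1* had 52.3 FPKM in CTRL and 74.1 FPKM in IR12, and *Mcfd2* had 39.5 and 49.0 FPKM.

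Protease-activated receptors are cut by clotting proteases and signal through G proteins. *F2rl1*, the gene of the trypsin-type receptor that tissue factor complexes can activate, had 0.281 FPKM in CTRL and 1.60 FPKM in IR12, a log2 ratio of 1.02. The fewest whole reads that fit these values are 4 in CTRL and 39 in IR12. With the pseudocount of 1 the call sits at the threshold, and centring on the median gene brought it just under 2-fold. The plain ratio was 5.71, and the log2 ratio was 2.16 with a pseudocount of 0.1 and 1.22 on the TPM scale. *F2r*, the main thrombin receptor gene, had 2.17 FPKM in CTRL and 3.45 FPKM in IR12, a log2 ratio of 0.49. The other receptors of this family, *F2rl2* and *F2rl3*, were under 1 FPKM in both libraries.

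Anticoagulants limit clotting on the vessel wall, and 1 of the 5 rose. All 5 reached 1 FPKM, and 6.56% of the 13599 such genes rose. *Pros1* encodes protein S, a cofactor of activated protein C that is also a ligand of the receptors by which pigment epithelium takes up photoreceptor tips. It had 12.9 FPKM in CTRL and 27.5 FPKM in IR12, a ratio of 2.14 and a log2 ratio of 1.04. The table places the *Pros1* row at chr7:1206648-1288134 in rn6, while RefSeq places the gene on chromosome 11 in GRCr8, and which of these is right for the reads counted was not tested.

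The *Pros1* promoter is shown as that of the called anticoagulant. It spans chr11:13677049-13677348 on the plus strand in GRCr8, with a STAT match that begins 113 bases before the start and 3 NF-kB matches, of which 2 overlap.
Pros1: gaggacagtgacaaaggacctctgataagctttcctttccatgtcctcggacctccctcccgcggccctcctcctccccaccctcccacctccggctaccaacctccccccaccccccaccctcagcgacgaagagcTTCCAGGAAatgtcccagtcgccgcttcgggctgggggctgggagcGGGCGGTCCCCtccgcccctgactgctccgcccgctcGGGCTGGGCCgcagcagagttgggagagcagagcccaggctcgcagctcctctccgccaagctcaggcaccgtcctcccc

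The other 4 anticoagulants lay under 2-fold with the pseudocount of 1, and *Tfpi* was the only one of the 5 that was lower. *Tfpi* encodes the inhibitor of the tissue factor complex and had 12.9 FPKM in CTRL and 6.77 FPKM in IR12, a log2 ratio of -0.84 that becomes -0.25 on the TPM scale. *Thbd*, the gene of thrombomodulin, which turns thrombin into an activator of protein C, had 2.22 FPKM in CTRL and 4.24 FPKM in IR12. Its log2 ratio was 0.70, and 1.15 on the TPM scale. *Procr*, the gene of the endothelial protein C receptor, had 0.307 and 1.11 FPKM, with at least 6 and 37 whole reads. Its plain ratio was 3.61, and its log2 ratio was 0.69 with the pseudocount of 1 and past 2-fold at 1.57 with a pseudocount of 0.1. *Tfpi2*, a matrix-bound serine protease inhibitor, had 1.94 and 3.45 FPKM, a log2 ratio of 0.60 that passes 2-fold on the TPM scale at 1.03. Relative to the shifted median of all genes on that scale, only 1 of the 5 anticoagulants, *Pros1*, was past 2-fold upward.

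The protein C route thus held *Thbd*, *Procr* and *Pros1*, with log2 ratios of 0.70, 0.69 and 1.04. *Proc*, the gene of protein C itself, was listed at 0 in both libraries. Among the 7 anticoagulant genes outside the 39 members, *Anxa5* was the only 1 that reached 1 FPKM and could be called, and it passed 2-fold. *Anxa5* encodes a protein that covers the phosphatidylserine on which clotting complexes assemble, and it had 14.5 FPKM in CTRL and 74.6 FPKM in IR12. The liver gene of antithrombin, *Serpinc1*, was listed at 0 in CTRL and at 0.0545 FPKM in IR12.

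Set against each other, coagulation activators and inhibitors differed more than those of complement. The median log2 ratio was 0.08 over the 8 procoagulants and 0.69 over the 5 anticoagulants. Over genes with FPKM of at least 1 the procoagulants had -0.01, and procoagulants minus anticoagulants gave -0.70. Summed FPKM was 42.8 in CTRL and 25.8 in IR12 for procoagulants, and 30.2 and 43.1 for anticoagulants. The order of the sums was therefore opposite in the libraries, but each change of a sum rests on 1 gene. The lower sum of procoagulants rests on *F5*, and without *Pros1* the anticoagulants summed to 17.4 FPKM in CTRL and 15.6 FPKM in IR12. On the TPM scale the difference of the medians was -0.55. With a minimum of 5 FPKM it was -1.55, from -1.45 for procoagulants and 0.10 for anticoagulants, over fewer genes. The anticoagulant median of 0.69 is the value of *Procr*, which reached 1 FPKM through IR12 alone.

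**Figure D3:**
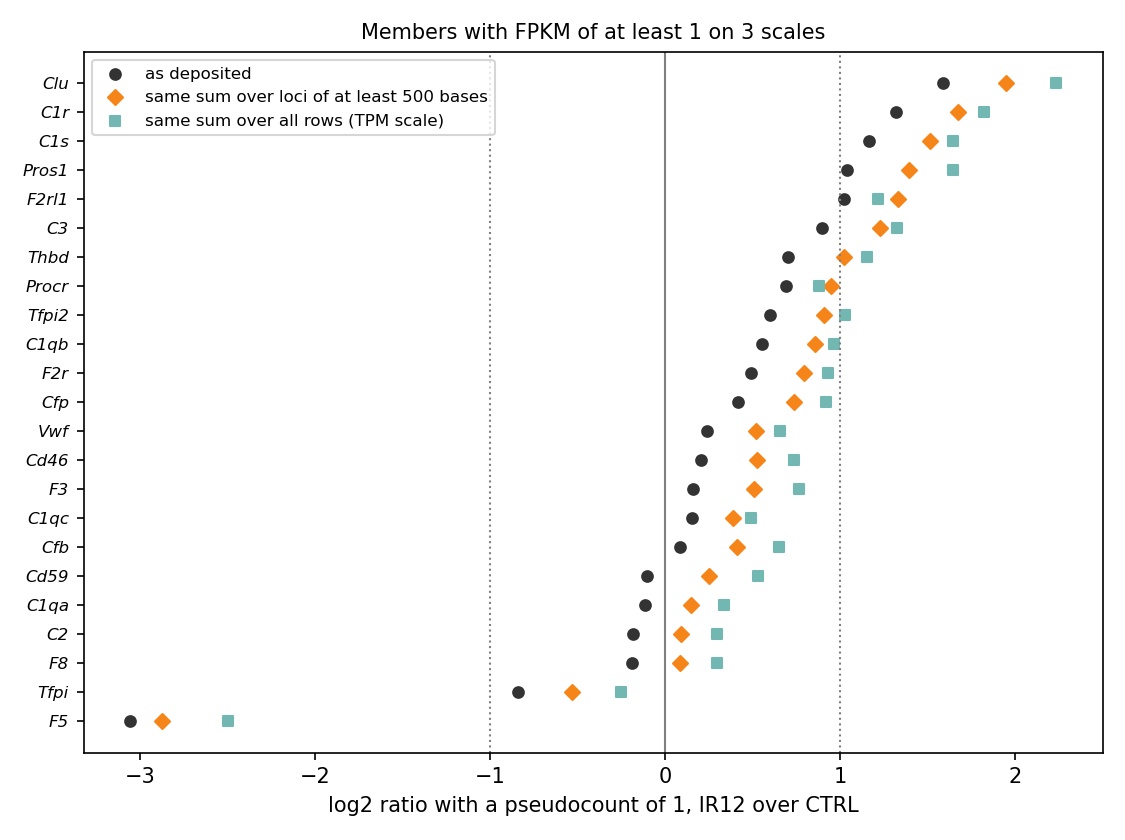
Log2 ratio with a pseudocount of 1, IR12 over CTRL, of the 23 members with FPKM of at least 1 in at least 1 library, on the deposited scale (circles), after bringing loci of at least 500 bases to the same sum (diamonds) and on the TPM scale (squares). Dotted lines mark 2-fold, and *C1qa*, *C2*, *Cd59* and *F8* lie left of 0 on the deposited scale and right of it on the others.

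Fibrinolysis dissolves clots through plasmin, which plasminogen activators release from plasminogen, and 6 of the 10 genes analysed rose while none fell. Of the 6, *Plau*, *Plaur* and *Serpinb2* reached 1 FPKM through IR12 alone. For comparison, 2.73% of all rows and 6.56% of the 13599 genes that reach 1 FPKM rose. These genes are outside the 39 members. *Plat*, the tissue-type activator gene, had 8.82 FPKM in CTRL and 39.9 FPKM in IR12, and *Plau*, the urokinase gene, was listed at 0 in CTRL and at 8.54 FPKM in IR12. Both activator genes were thus listed higher in IR12. As said above, a listed 0 says little by itself, which bears on *Plau*, *Plaur* and *Serpinb2* in CTRL.

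Other called genes of the list act at the cell surface or on urokinase. *Anxa2* and *S100a10* encode the partners of a complex that binds plasminogen and its activator. *S100a10* had 84.4 FPKM in CTRL and 580 FPKM in IR12, and *Anxa2* had 18.2 and 75.3 FPKM. *Plaur*, the urokinase receptor gene, and *Serpinb2*, an intracellular urokinase inhibitor gene, were listed at 0 in CTRL and at 1.80 and 4.70 FPKM in IR12. *Plg*, the gene of plasminogen, a plasma protein made in the liver, was listed at 0 in CTRL and at 0.0880 FPKM in IR12.

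Over the 62 genes of these pathways analysed outside the 39 members, 12 rose and 1 fell, or 19.4% higher against 2.73% of all rows. Of the 62, 25 reached 1 FPKM and could be called, and over the 13599 such genes 6.56% rose and 6.12% fell. The lists were chosen with earlier results of these data known, so an excess over all rows is no independent support. Of the 12, 7 reached 1 FPKM through IR12 alone, so they could be counted only as higher. The gene that fell was *Colec12*, a scavenger receptor of the collectin family, with 5.004 FPKM in CTRL and 1.25 FPKM in IR12. Of the recognition molecules, *Fcnb*, a ficolin gene of myeloid cells, was listed at 0 in CTRL and at 1.16 FPKM in IR12. On the TPM scale 16 rose and none fell, and relative to the shifted median of all genes 8 rose and 1 fell. Fibrinolysis and the receptors made up 10 of the 12 on the deposited scale.

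**Figure D4:**
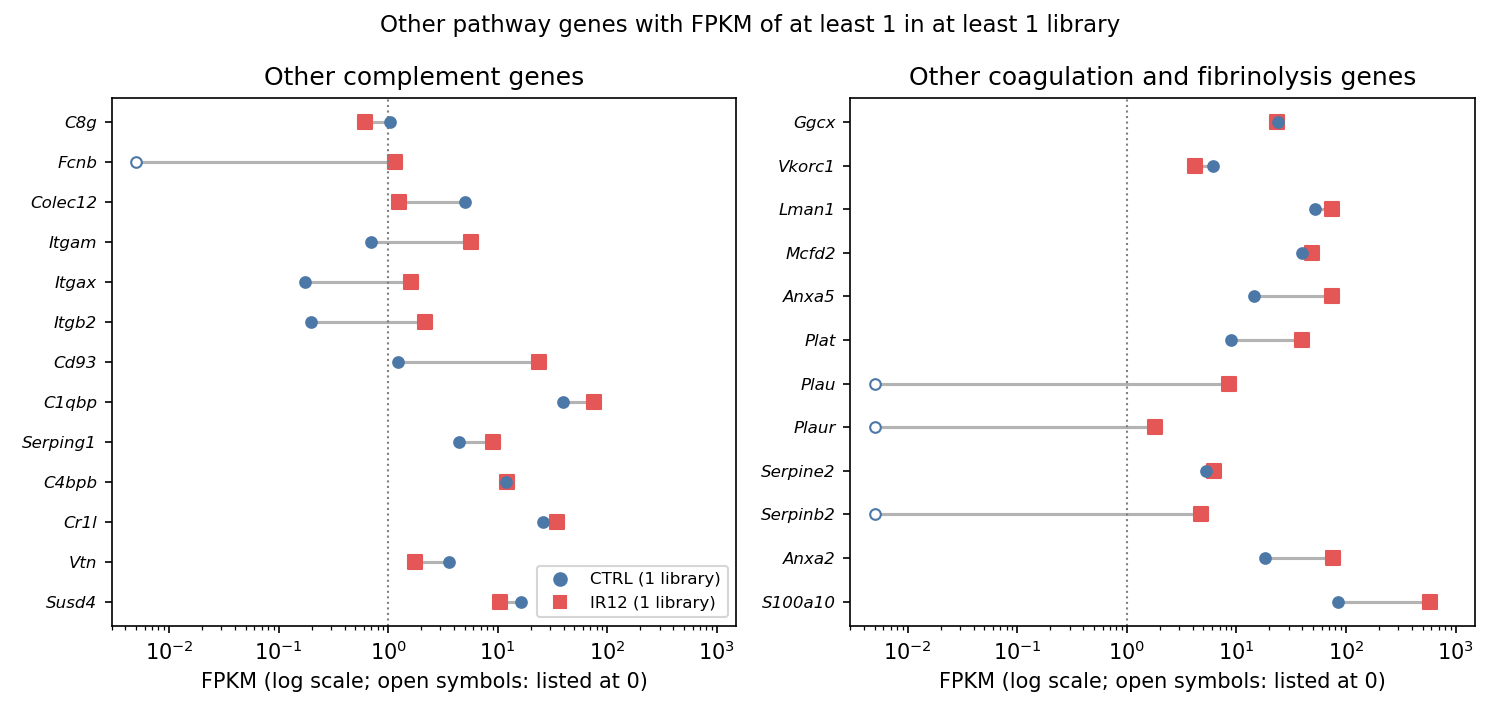
FPKM on a log axis of the other complement genes (left) and the other coagulation and fibrinolysis genes (right) with FPKM of at least 1 in at least 1 library, with a circle for CTRL, a square for IR12 and open symbols for values listed at 0. The values of *C4bpb* nearly coincide in the libraries, while *Cd93*, *Plat*, *Anxa2*, *Anxa5* and *S100a10* lie to the right in IR12.

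Markers of blood and vessels were read beside the clotting genes. Past 2-fold were 2.73% of all rows upward and 2.55% downward. Of 9 listed endothelial markers 1 rose, *Flt1*, and the list summed to 137 FPKM in CTRL and 119 FPKM in IR12, led by *Kdr*. Without *Kdr* the sum was 29.7 FPKM in CTRL and 52.6 FPKM in IR12, and without *Flt1* as well it was 17.4 and 20.2 FPKM. None of 8 platelet markers reached 1 FPKM, with a sum of 0.386 FPKM in CTRL and 1.24 FPKM in IR12, led by *Itga2b* in CTRL and *Pf4* in IR12, and *Ppbp*, *Gp1bb* and *Gp5* were listed at 0 in both. Of 6 listed red cell genes 2 rose, *Hba-a2* and *Hba-a3*, with a sum of 39.8 FPKM in CTRL and 82.7 FPKM in IR12 led by *Hbb*. The other 3, all under 1 FPKM in both libraries, were lower in IR12, namely *Alas2*, *Slc4a1* and *Hba-a1*, which had 0.859 FPKM in CTRL and 0.168 FPKM in IR12. Of 8 hepatocyte and plasma protein genes none passed 2-fold. *Alb*, the albumin gene, had 0.0695 FPKM in CTRL and 0.0204 FPKM in IR12, while the sum of 63.9 and 89.3 FPKM came mostly from *Ttr*, which pigment epithelium also expresses. The part of blood and vessels in the result was not tested.

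The tissue label was checked against photoreceptor markers. Here too, 2.73% of all rows were past 2-fold higher and 2.55% lower. None of 6 rod markers passed 2-fold, and their summed FPKM was 8724 in CTRL and 11128 in IR12, led by *Gnat1* in CTRL and *Sag* in IR12. Of 6 pigment epithelium markers *Rpe65* fell and none rose, with a sum of 31.1 FPKM in CTRL and 32.5 FPKM in IR12 led by *Rgr*. Of 6 fibroblast markers *Pdgfra* fell, which retinal astrocytes also express at some stages, with a sum of 8.55 FPKM in CTRL and 2.42 FPKM in IR12, and *Col1a2* was listed at 0 in both. On the TPM scale neither *Rpe65* nor *Pdgfra* was past 2-fold, while *Sag* and *Rgr* were past it upward, with log2 ratios of 1.57 and 1.22. Relative to the shifted median on that scale, 1 pigment epithelium and 1 fibroblast marker were past 2-fold downward. No rod, pigment epithelium or fibroblast marker was past it upward. Of the reference genes, *Gapdh* had 716 FPKM in CTRL and 690.1 FPKM in IR12, a log2 ratio of -0.05 that becomes 0.59 on the TPM scale, and *Actb* rose from 259.9 to 537 FPKM, a log2 ratio of 1.04 that becomes 1.69. A reference gene was thus itself past 2-fold.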

How the data were processed

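Retina RNA of 1 CTRL and 1 IR12 rat was sequenced after removal of ribosomal RNA. The authors deposited FPKM per gene, with 1 column per library. The submitters' processing notes name STAR 2.5.2b, Cuffdiff 2.2.0 and the rn6 build. The series text names a stranded mRNA kit where the sample labels name a stranded total RNA kit. Groups came from the sample labels.

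The ratio was log2((IR12 + 1)/(CTRL + 1)), and genes with FPKM of at least 1 in at least 1 library and at least 2-fold on that scale were called. With 1 library per group no test was run. FPKM per read was taken as the lowest value shared by several genes of equal locus length. The alternatives were another pseudocount, the TPM scale, centring, other minimum values, a call at 1.5-fold and, chosen after seeing the data, a minimum mean, rescaling over loci of at least 500 bases and summed rows. Members, lists and named genes (the members, the pathway and marker lists, *Gapdh* and *Actb*) were chosen with earlier results of these data known. *Sele*, *Selp* and *Slc19a2* were added after their values were seen. Some genes of the lists are not reported here and are left out of the counts and sums. Promoters came from RefSeq GRCr8. Scripts used Python 3.11.15, numpy 2.4.6, pandas 2.3.3 and matplotlib 3.10.9 and were tested on simulated data.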

Additional observations from a re-analysis of the deposited data

How the results depend on the processing

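Of 74 values recomputed for 10 counts, medians and differences, 63 stayed within 1.5 times (counts) or 0.58 on the log2 scale (medians) of the value reported. Some of the 63 could not have moved. A gene under 1 FPKM in both libraries cannot reach 2-fold with the pseudocount of 1. Taking all genes above 0 therefore left every count as it was, and centring leaves a difference of medians unchanged. The 63 include the complement difference that turned from 0.21 to -0.12 with all genes above 0. On the TPM scale 8 members were at least 2-fold higher, and over all genes 2817 were higher and 436 lower. With loci of at least 500 bases brought to the same sum, chosen after seeing the data, 1718 of all genes were higher. Both follow from the rescaling, which multiplies every IR12 value by 1 factor relative to CTRL. A call at 1.5-fold gave 9 members higher and 2 lower, and 2007 and 1861 of all genes, as a lower threshold must. With FPKM of at least 5 in at least 1 library, the median log2 ratio was -1.45 for procoagulants, 0.10 for anticoagulants and -1.55 for their difference, over fewer genes. No called member changed sign under any alternative, and *F2rl1* alone lost its call, under centring and under the minimum of 5 and the added minimum of a mean FPKM of 1. Calls were gained by *C3* and *Procr* with a pseudocount of 0.1, by *C3*, *Thbd* and *Tfpi2* on the TPM scale, and by *C3* and *Thbd* under the added rescaling. No paired analysis was possible because each group has 1 library, and for the same reason no replicate was left out. Only lower bounds on the reads were found, for the genes given with them above. The number of reads behind other values was not given in the sources used here.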
